A study of Homo sapiens with 22 samples.

Results

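RNA sequencing counts were compared between HEK293 cells holding dCas9-VPR with a guide against HBB, called VPR here, and WT HEK293 cells. The comparison takes in every gene of the count table and 4 of the 22 samples of the series, with 2 VPR libraries and 2 WT libraries. HEK293 is a line derived from human embryonic kidney. The VPR cells carried a doxycycline-inducible fusion, were induced for 48 hours and were sorted for both GFP and BFP. The WT cells held a guide RNA but no dCas9 fusion and were sorted for BFP alone, and their treatment is labelled as none. An induction time of 48 hours is recorded for every sample of the series, WT included. Even so, the labels name neither the guide of the WT cells nor whether doxycycline was given to them. The fusion, the GFP sort and possibly the drug and the guide thus separate the groups and cannot be told apart. The RNA was selected for poly-A. The other 4 RNA groups, used only to show where VPR differed, were p300, p300 D1399Y and VPRP with the HBB guide, and VPRP with a non-targeting guide, each fused to dCas9 and with 2 libraries. VPRP joins VPR to the p300 acetyltransferase core, and p300 D1399Y carries a substitution that impairs its catalysis. The series' design text calls the libraries of a group biological replicates, so p-values measure the spread between such samples. An exact permutation test of 2 libraries against 2 cannot go below p = 0.333, so tests rest on a model fitted across all genes.

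VPR is a chain of the activation domains VP64, p65 and Rta. Tethered to a promoter by dCas9, these domains bind Mediator, general transcription factors and endogenous acetyltransferases, and they carry no acetyltransferase of their own. p65 is the activation subunit of NF-kB, encoded by RELA, and Rta is the lytic switch activator of a herpesvirus. HBB, the beta-globin gene, is transcribed in red cell precursors and is normally silent in HEK293 cells.

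The 2 VPR libraries differed from each other more than the libraries of any other group did. For genes averaging 50 counts or more, the variance between the VPR libraries had a median of 2.3 times the value that counting alone gives on average. The same median was 1.27 in WT and 1.08 to 1.71 in the other groups, and counting alone would give 0.455. Over the 9771 genes at 10 CPM or more (counts per 1000000, scaled to library size with TMM factors), the log2 ratio of the 2 libraries had an SD of 0.19 in VPR and 0.141 in WT, and between 0.128 and 0.16 in the other groups. In VPR 39 of these genes lay at least 1.5-fold apart, against 24 in WT and 8 to 26 in the other groups. Total counts were 16325242 and 15287744 in VPR and 15505635 and 15781059 in WT. Transcripts of the mitochondrial genome took 3.41% of counts in VPR replicate 1 (95% Wilson interval 3.40 to 3.42) and 2.14% in VPR replicate 2 (2.13 to 2.14), against 2.10% and 1.88% in WT and 2.7% to 3.44% in the other groups. VPR replicate 1 thus lay within the range of the other fusion groups and VPR replicate 2 near WT. These intervals cover counting error within a library only, and not the spread between libraries. The reads carried no molecular identifiers.

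VPR replicate 2 lay farther from WT. Its median absolute log2 difference from the WT mean was 0.21, against 0.16 in VPR replicate 1. Among the 3374 genes that were both at 10 CPM or more and called in the comparison below, 2360 (69.9%) were farther from WT in VPR replicate 2. Of these 3374 genes, 3373 were on the same side of the WT mean in both VPR libraries, which is in part built in because both share the WT mean and the call.

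**Figure D1:**
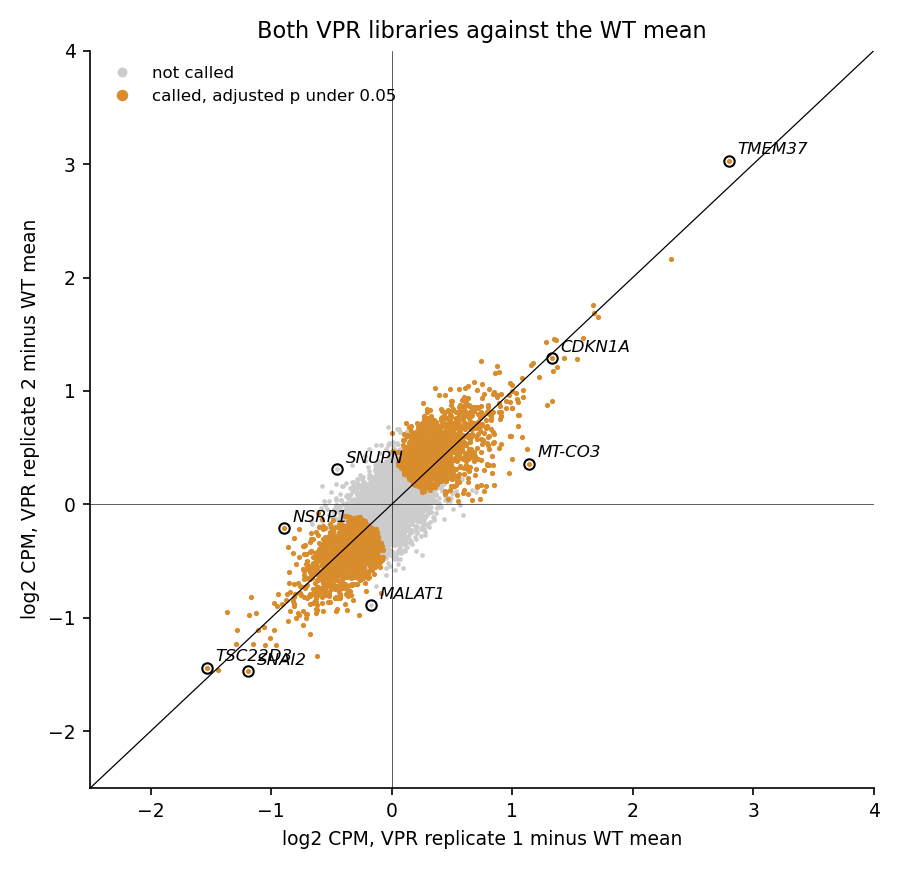
Each point is a gene at 10 CPM or more, with the log2 CPM difference from the WT mean in VPR replicate 1 (x axis) and in VPR replicate 2 (y axis). The diagonal marks equal values, orange points were called (adjusted p under 0.05), and HBB lies beyond both axes. MT-CO3 lies below the diagonal, with a ratio of replicate 2 to replicate 1 of 0.58, and SNUPN above it, with a ratio of 1.73.

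Of 16694 tested genes, 4220 (25.3%) differed between VPR and WT in edgeR's quasi-likelihood test at an adjusted p (Benjamini-Hochberg) under 0.05. Of these, 2307 (13.8% of tested genes) were higher and 1913 (11.5%) lower in VPR, and the median log2 fold change of all tested genes was 0.02. Most differences were small. A change of at least 2-fold, with both VPR libraries above or both below both WT libraries, held for 516 called genes (3.09% of tested genes), 404 of them higher (2.42%) and 112 lower (0.671%). The libraries of the groups did not overlap for 9818 tested genes (58.8%), called or not. The test shared 1 estimate of spread over all 6 groups, which can understate the wider spread of VPR. A fit of the 2 groups alone called 3562 genes, and limma voom with quality weights by group called 3402. Without VPR replicate 2 the count of called genes was 2746, without VPR replicate 1 it was 4199, and without WT replicate 1 or WT replicate 2 it was 2752 or 2548.

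**Figure D2:**
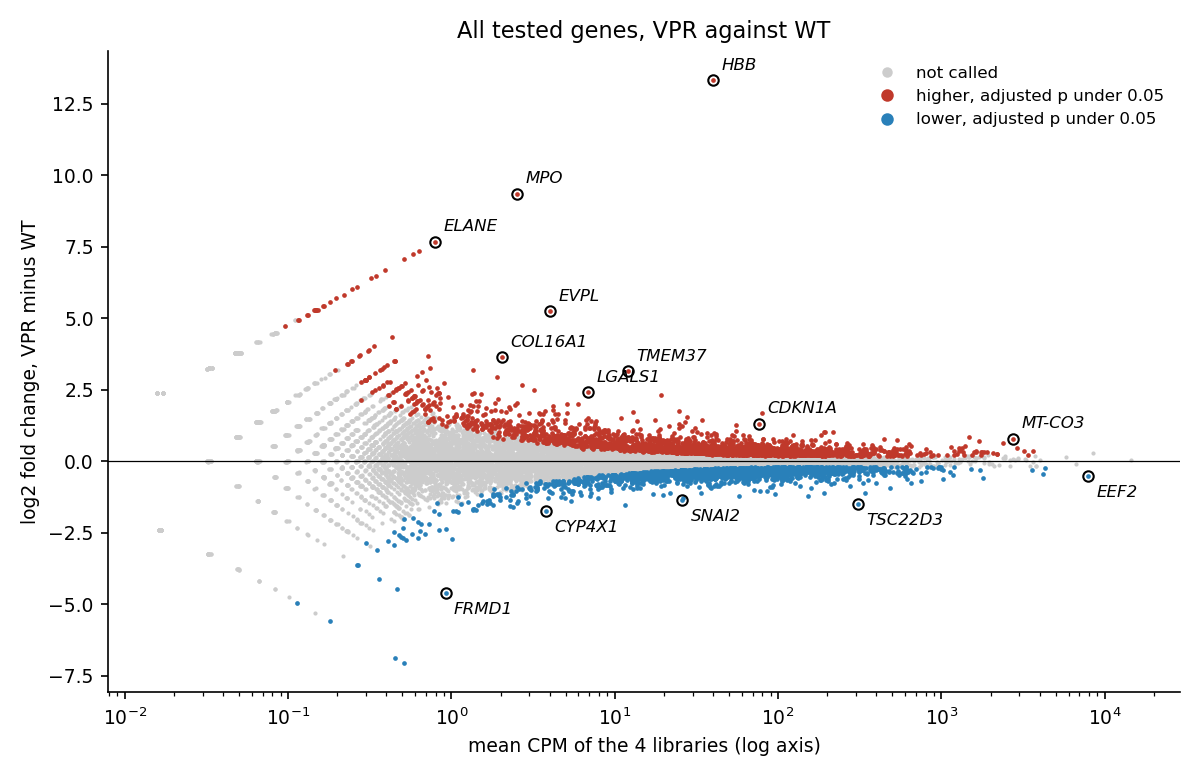
Each point is 1 of the 16694 tested genes, with the mean CPM of the 4 libraries on a log axis and the fitted log2 fold change of VPR against WT. Red and blue points are the 2307 higher and 1913 lower genes, and circles mark named genes. Fitted values of genes with no count in a group, such as HBB, MPO and ELANE, are not measured folds.

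HBB, the target of the guide, stood at 65.8 and 95.0 CPM in the VPR libraries (1039 and 1388 counts). It had 0 counts in both WT libraries and in both libraries of VPRP with the non-targeting guide. Taking the 3 counts over the group that a count of 0 allows, HBB was at least 807-fold higher in VPR than in WT (adjusted p = 7.75e-22). Its level in p300 D1399Y was 76.1 and 82.1 CPM, a range that lies within that of the VPR libraries (log2 difference of VPR 0.02, SE 0.11, adjusted p = 0.924). In p300 it was 189 and 185 CPM. In VPRP with the HBB guide it was 1732 and 1379 CPM, and VPR was lower by 4.28 on the log2 scale (SE 0.114, adjusted p = 2.21e-24).

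The rise at HBB was not matched by called rises in its neighbours. HBD, the delta-globin gene next to HBB, had 1 count in VPR replicate 1 and 0 in the other VPR and WT libraries. The fetal gene HBG1, the noncoding BGLT3 and the olfactory receptor genes OR51V1, OR52A1, OR52A5, OR52E2 and OR52J3 had 0 counts in all 4 libraries. The fetal gene HBG2 had 4 and 3 counts in VPR and 2 and 4 in WT, and the embryonic gene HBE1 had 0 and 3 against 1 and 2. At these counts no change in HBG2 or HBE1 was detectable. Of 10 globin genes 6 were tested, and HBB was the only member called in any direction, in the main fit and in all 12 alternatives. HBQ1, the theta-globin gene, was at 11.7 and 12.6 CPM in VPR and 15.7 and 14.7 CPM in WT (adjusted p = 0.0889).

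Of 17 erythroid regulators and markers, 9 were tested, 1 was higher and 1 lower (22.2% called, near the 25.3% of all tested genes, with a median log2 fold change of 0.12). EPOR, the erythropoietin receptor, was at 14.2 and 12.2 CPM in VPR against 8.87 and 7.7 CPM in WT (log2 0.68, SE 0.151, adjusted p = 0.00105). BCL11A, a repressor of fetal globin genes, was at 20.0 and 22.9 CPM against 28.8 and 25.8 CPM (log2 -0.35, SE 0.119, adjusted p = 0.03), and its call was lost with VPR replicate 1 left out (adjusted p = 0.218) or WT replicate 1 (adjusted p = 0.225). GATA2, TAL1, LMO2, MYB and LDB1 were not called.

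Beside HBB, the largest rises among genes with a mean log2 CPM of at least 1 were in genes of unrelated function. EVPL, which encodes envoplakin of the cornified envelope, was at 8.87 and 6.77 CPM in VPR and 0.202 and 0.194 CPM in WT, a 38.2-fold difference (log2 5.26, SE 0.364, adjusted p = 8.13e-13). COL16A1, a fibril-associated collagen, was at 4.24 and 3.28 CPM against 0.269 and 0.323 CPM, 12.4-fold higher (log2 3.64, SE 0.366, adjusted p = 4.34e-09). TMEM37, a membrane protein related to calcium channel gamma subunits, was at 19.9 and 23.5 CPM against 2.49 and 2.39 CPM, 8.88-fold higher (log2 3.15, SE 0.17, adjusted p = 9.20e-16). In all of these the groups were far apart and the 2 VPR libraries close to each other. SV2A, a synaptic vesicle protein, was at 9.18 and 10.1 CPM against 2.35 and 2.39 CPM, 4.04-fold higher (log2 2.01, SE 0.191, adjusted p = 1.21e-09).

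EVPL, COL16A1, TMEM37 and SV2A were also high in the other groups with the HBB guide and low in VPRP with the non-targeting guide. In that group EVPL was at 0.425 and 0.887 CPM, COL16A1 at 0.85 and 0.942 CPM, TMEM37 at 4.37 and 4.49 CPM and SV2A at 3.71 and 2.44 CPM. In p300 D1399Y, EVPL was at 27.3 and 25.8 CPM and SV2A at 47.0 and 40.9 CPM, above the VPR libraries. VPR was lower than p300 D1399Y by 1.76 on the log2 scale for EVPL (SE 0.159, adjusted p = 3.18e-10) and by 2.20 for SV2A (SE 0.125, adjusted p = 1.70e-15). Whether the HBB guide has a binding site near these genes was not tested.

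Other large rises were in genes that VPRP also held high, under either guide. LGALS1, a secreted galactose-binding lectin, was at 11.1 and 12.0 CPM in VPR and 2.15 and 2.20 CPM in WT (5.31-fold, log2 2.41, SE 0.191, adjusted p = 1.61e-11), and at 86.9 and 75.9 CPM in VPRP with the non-targeting guide. ARC, a neuronal immediate early gene, was at 7.47 and 8.90 CPM against 1.28 and 2.78 CPM (3.99-fold, adjusted p = 1.91e-08), and at 62.4 and 58.2 CPM in VPRP with the non-targeting guide. ALDH1A1, a retinaldehyde dehydrogenase, rose 6.4-fold (3.99 and 5.41 CPM against 0.538 and 0.906 CPM), PMEL, a melanosome fibril protein, 5.63-fold (3.99 and 6.91 CPM against 1.08 and 0.841 CPM), and DKK3, a secreted Dickkopf family protein, 4.1-fold (4.24 and 3.90 CPM against 0.941 and 1.03 CPM). For these 5 genes both VPRP groups lay above WT in every library.

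**Figure D3:**
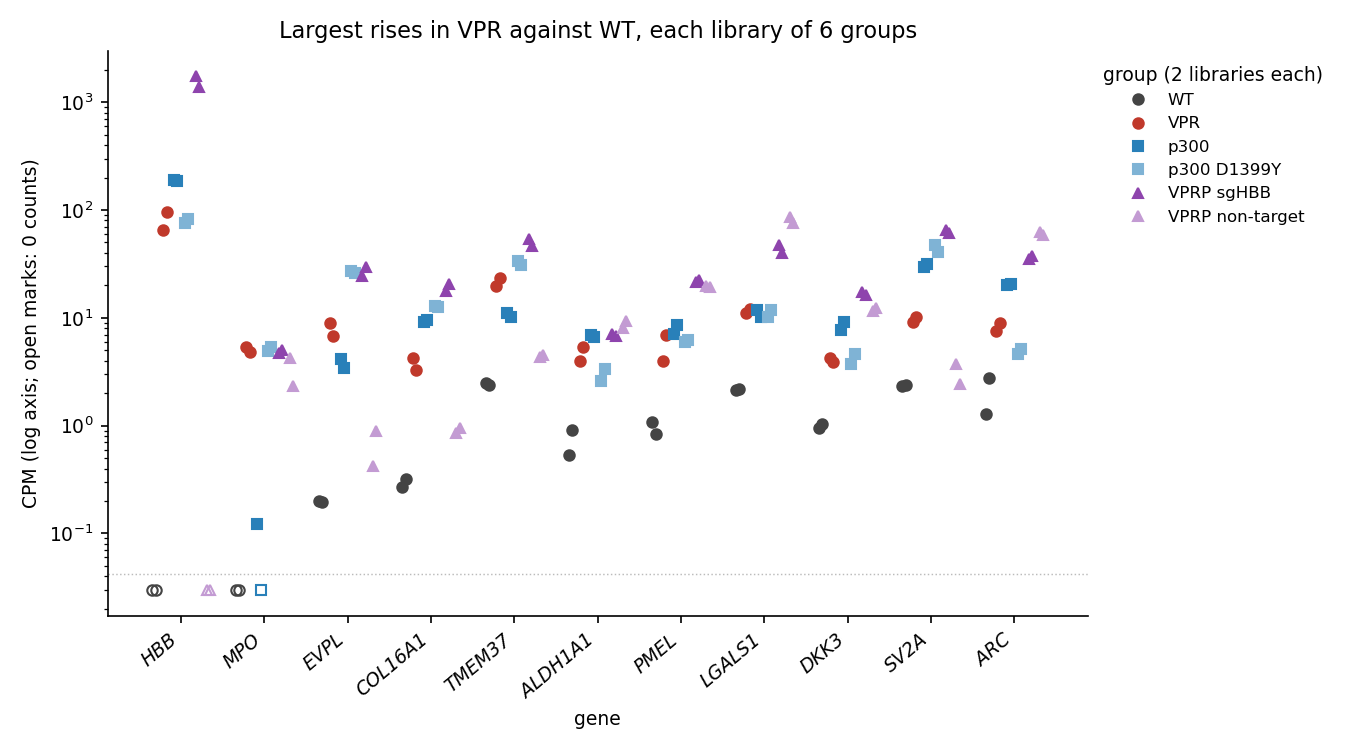
CPM on a log axis of the largest rises in VPR against WT among genes with a mean log2 CPM of at least 1. Each library of the 6 RNA groups is shown. Open marks below the dotted line are libraries with 0 counts. EVPL, COL16A1, TMEM37 and SV2A are high in the 4 groups with the HBB guide, and HBB reaches 1732 and 1379 CPM in VPRP with that guide.

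Several genes of neutrophil primary granules rose from 0 or near 0 counts. MPO, myeloperoxidase, was at 5.38 and 4.79 CPM in VPR (85 and 70 counts) and had 0 counts in WT, so that it was at least 51.6-fold higher (adjusted p = 3.53e-10). ELANE, neutrophil elastase, had 22 and 26 counts in VPR and 0 in WT, at least 16-fold higher (adjusted p = 1.46e-05). CTSG, cathepsin G, had 12 and 19 counts against 0, at least 10.3-fold higher (adjusted p = 4.33e-04). PRTN3, proteinase 3, was at 1.58 and 1.23 CPM against 0.336 and 0.194 CPM (log2 2.38, SE 0.593, adjusted p = 0.00288). LYZ, lysozyme, was at 0.507 and 0.479 CPM against 0 (adjusted p = 0.00667). PRSS57, a further serine protease of these granules, had 15 and 5 counts in VPR and 0 in WT, at least 6.65-fold higher.

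Genes that identify myeloid cells were not called, or had too few counts to be tested. Of the 12 granule and identity genes 8 were tested, 5 were higher and 0 lower (62.5% called against 25.3% of all tested genes). AZU1, a further granule gene of this list, was not among the tested genes. SPI1, the myeloid lineage factor PU.1, was at 0 and 0.274 CPM in VPR and 0.202 and 0.259 CPM in WT. The granulocyte factor CEBPE had 0 counts in VPR, the receptor CSF3R had 0 and 0.137 CPM in VPR, and PTPRC, the leukocyte antigen CD45, 0.19 and 0.0684 CPM. The calcium-binding granulocyte genes S100A8 and S100A9 were at or below 0.205 CPM in VPR and WT. At such counts a change in the identity genes between VPR and WT would hardly be detectable. The summed level of the 12 genes was 10.1 and 10.9 CPM in VPR and 0.672 and 0.647 CPM in WT. Without WT replicate 2, the calls of PRTN3 (adjusted p = 0.0527) and LYZ (adjusted p = 0.0657) were lost, LYZ also with WT replicate 1 left out (adjusted p = 0.0591), and DESeq2 and the stricter count filter called 3.

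MPO was at 4.97 and 5.39 CPM in p300 D1399Y, 4.76 and 5.08 CPM in VPRP with the HBB guide, 4.25 and 2.33 CPM in VPRP with the non-targeting guide, and 0.122 and 0 CPM in p300. CTSG was higher in VPR than in p300 D1399Y (12 and 19 counts against 4 and 1, log2 2.65, SE 0.802, adjusted p = 0.0163). The identity genes S100A8 (log2 -2.94, adjusted p = 0.00845), S100A9 (log2 -4.54, adjusted p = 0.00202) and SPI1 (log2 -2.70, adjusted p = 0.0186) were lower in VPR than in p300 D1399Y. These identity genes had too few counts in VPR and WT to pass the count filter there. They were tested only because other groups held them higher, so this direction was in part set by the filter. No tested gene beside MPO in RefSeq gene order was called. TSPOAP1, next to MPO on one side, was not among the tested genes. LOC124904038, LOC105371841, MIR142 and MIR4736 had no matching gene ID, so nothing was learned about them. EPX, eosinophil peroxidase, was at 0.633 and 0.411 CPM in VPR against 0.672 and 0.906 CPM in WT, and MKS1, a ciliary gene, at 32.9 and 35.1 CPM against 37.6 and 44.0 CPM (adjusted p = 0.0517). The promoters of CTSG and PRTN3, from RefSeq on GRCh38.p14 (250 bases before to 50 after the start, 5' to 3' on the gene's strand), are given because both genes rose while the lineage factor SPI1 was not called. The counts themselves were made on hg19.
CTSG (chr14:24576201-24576500, minus strand): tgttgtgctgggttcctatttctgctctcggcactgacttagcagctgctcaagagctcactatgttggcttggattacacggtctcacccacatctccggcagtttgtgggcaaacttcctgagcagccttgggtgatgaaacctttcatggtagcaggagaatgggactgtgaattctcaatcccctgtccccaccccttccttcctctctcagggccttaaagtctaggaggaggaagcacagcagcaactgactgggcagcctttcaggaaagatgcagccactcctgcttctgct
PRTN3 (chr19:840749-841048, plus strand): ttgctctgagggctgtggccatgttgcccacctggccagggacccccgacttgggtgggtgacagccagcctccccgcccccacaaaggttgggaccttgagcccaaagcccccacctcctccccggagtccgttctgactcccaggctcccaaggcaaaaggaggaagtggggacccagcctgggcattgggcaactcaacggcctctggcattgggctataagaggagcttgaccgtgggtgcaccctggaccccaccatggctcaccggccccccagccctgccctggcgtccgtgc

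In all, 26 genes had at most 3 counts over the WT libraries and at least 20 over the VPR libraries. They were chosen for these counts, so they are given as a description. LRCOL1, which encodes a leucine-rich colipase-like protein, had 28 and 11 counts in VPR, 0 in WT and at most 3 in any library of the other groups. Its level was at least 13-fold higher than in WT. The untested ID ENSG00000260719, which has no symbol here, had 15 and 9 counts in VPR and 0 in the other 10 libraries. This ID was singled out after its values were seen. SLC8A3, a sodium-calcium exchanger, had 24 and 17 counts against 1 and 2, a ratio of 13.6 (exact 95% interval 4.35 to 68.8, counting error only). FOLR1, a folate receptor, and DMBT1, a mucosal scavenger receptor, each had 25 counts against 2 (ratio 12.5, interval 3.11 to 109). In the other direction 10 genes had at most 3 counts in VPR and at least 20 in WT. FRMD1, a FERM domain gene, had 2 and 0 counts in VPR and 28 and 26 in WT (ratio 0.037, interval 0.00436 to 0.14), and 3 to 12 counts in the libraries of the other groups.

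Among called genes with a mean log2 CPM of at least 1 over the 4 libraries, the largest falls were smaller than the largest rises. Genes below this level, such as FRMD1, fell farther. CYP4X1, a cytochrome P450, was at 1.65 and 1.85 CPM in VPR and 6.12 and 5.63 CPM in WT (3.35-fold lower, log2 -1.75, SE 0.391, adjusted p = 0.00107). FZD10, a Wnt receptor, was at 5.95 and 5.88 CPM against 18.8 and 15.5 CPM (2.89-fold lower, log2 -1.53, SE 0.191, adjusted p = 2.90e-07). TSC22D3, the glucocorticoid-induced leucine zipper GILZ, was at 157 and 167 CPM against 460 and 448 CPM (2.8-fold lower, log2 -1.49, SE 0.0733, adjusted p = 1.18e-16). SNAI2, the mesenchymal transcription factor Slug, was at 16.0 and 13.1 CPM against 38.2 and 36.2 CPM (2.55-fold lower, log2 -1.35, SE 0.133, adjusted p = 2.52e-09). The VPR libraries lay below both WT libraries for each of these genes. SNAI2 and FZD10 were lower still in every library of p300 and p300 D1399Y, at 5.54 to 10.4 CPM and 2.33 to 4.29 CPM. TSSC2, a transcribed pseudogene, was at 14.9 and 15.5 CPM against 36.6 and 37.9 CPM (log2 -1.29, SE 0.128, adjusted p = 2.85e-09), but at 0.578 and 0.692 CPM in p300 D1399Y, from which VPR differed by 4.58 on the log2 scale (SE 0.232, adjusted p = 7.17e-17). The remaining large falls were ZNF256 (2.97-fold), ANKAR (2.71-fold), C17orf113 (2.62-fold), the pseudogene FCF1P2 (2.59-fold, whose reads may belong to its parent gene), TSPEAR (2.56-fold) and the antisense TMEM9B-AS1 (2.76-fold), whose call was lost with VPR replicate 2 left out (adjusted p = 0.125) or WT replicate 2 (adjusted p = 0.0956). The strand setting of the counting is not given in the sources used here, so reads of TMEM9B-AS1 and TMEM9B cannot be told apart.

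p53 target genes were mostly higher in VPR. p53 is the stress-activated transcription factor behind cell cycle arrest and apoptosis after DNA damage, and HEK293 cells carry an adenoviral E1B protein that binds it. Of 26 targets, all tested, 18 were higher and 3 lower (80.8% called against 25.3% of all tested genes), with a median log2 fold change of 0.53. CDKN1A, the cell cycle inhibitor p21, was at 111 and 108 CPM in VPR and 44.8 and 43.0 CPM in WT (log2 1.32, SE 0.0785, adjusted p = 1.40e-14). EDA2R, a death receptor of the TNF family, was at 3.48 and 3.28 CPM against 0.47 and 0.388 CPM (log2 2.96, SE 0.36, adjusted p = 1.73e-07). GDF15, a stress-induced cytokine, was at 2.53 and 2.60 CPM against 0.874 and 0.517 CPM (log2 1.88, SE 0.34, adjusted p = 9.38e-05), and TP53INP1, a cofactor of p53, was at 44.6 and 41.4 CPM against 16.3 and 21.7 CPM (log2 1.18, SE 0.111, adjusted p = 1.07e-09). The VPR libraries lay above both WT libraries for each of these genes. MDM2, the ligase that degrades p53, was at 136 and 127 CPM against 104 and 98.4 CPM (log2 0.38, SE 0.0796, adjusted p = 5.19e-04), and BAX, an apoptosis effector, at 217 and 216 CPM against 146 and 158 CPM (log2 0.51, SE 0.0708, adjusted p = 1.91e-06). The 3 lower members were BBC3, the effector PUMA (log2 -0.38), SESN2 (log2 -0.25) and CCNG1 (log2 -0.20). All 3 lost their calls with WT replicate 2 left out (adjusted p = 0.18, 0.0677 and 0.205), and SESN2 and CCNG1 also with VPR replicate 2 left out (adjusted p = 0.188 and 0.0622) or WT replicate 1 (adjusted p = 0.0814 and 0.0675), while CCNG1 was further lost with VPR replicate 1 left out (adjusted p = 0.0568). The count of higher members stayed at 17 or 18 when any of the 4 libraries was left out.

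Most p53 targets stood higher in p300 D1399Y than in VPR. Of the 26, 21 were lower in VPR than in p300 D1399Y and 0 higher (10.2% and 10.9% of all tested genes). VPR was lower by 0.87 on the log2 scale for CDKN1A (SE 0.0721, adjusted p = 4.67e-11), by 1.49 for EDA2R (SE 0.21, adjusted p = 2.46e-06) and by 2.01 for GDF15 (SE 0.213, adjusted p = 9.77e-09). Against VPRP with the HBB guide, 15 were lower and 4 higher in VPR (24.7% and 25.1% of all tested genes).

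**Figure D4:**
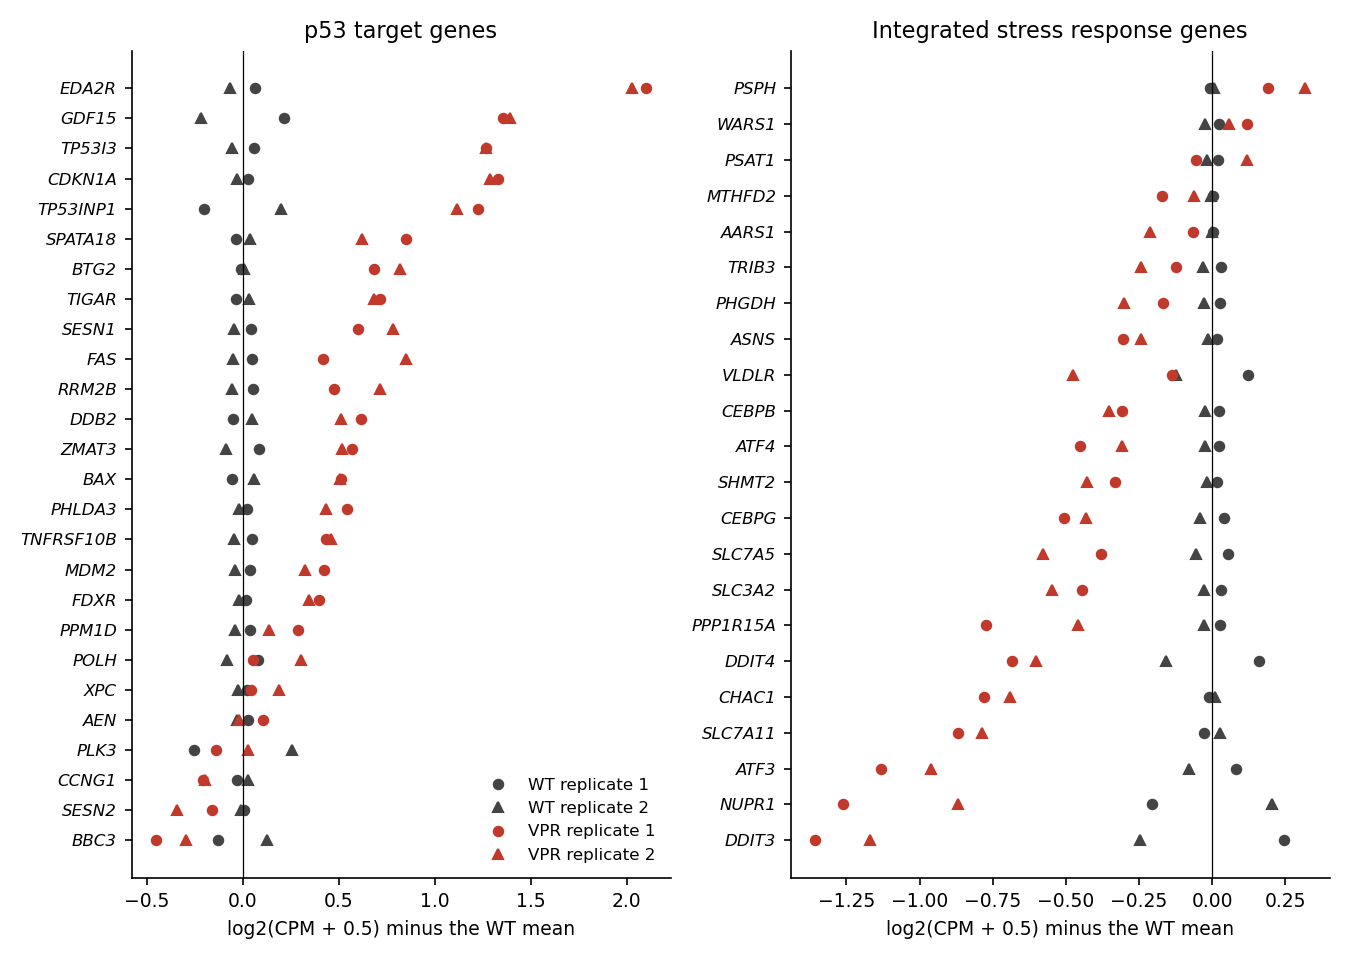
Each row is a gene, and each mark a library, with log2(CPM + 0.5) minus the WT mean on the x axis, for the 26 p53 targets (left) and the 22 integrated stress response genes (right). Circles are replicate 1 and triangles replicate 2, in red for VPR and dark grey for WT. The VPR marks lie to the right of both WT marks for 20 p53 targets and to the left for 19 stress response genes, and the groups did not overlap for 58.8% of all tested genes.

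Genes of the integrated stress response were mostly lower in VPR. In this response, phosphorylation of eIF2 alpha favours translation of ATF4, which then raises genes of amino acid import and synthesis together with CHOP, encoded by DDIT3. Of 22 genes, all tested, 15 were lower and 1 higher (72.7% called against 25.3% of all tested genes). Their median log2 fold change was -0.38. ATF4 itself was at 933 and 1029 CPM in VPR against 1296 and 1255 CPM in WT (log2 -0.38, SE 0.0717, adjusted p = 1.60e-04). ATF3, a transcription factor induced by ATF4, was at 47.6 and 53.6 CPM against 111 and 99.2 CPM (log2 -1.05, SE 0.0807, adjusted p = 7.55e-12). DDIT3 was at 1.08 and 1.30 CPM against 4.30 and 2.91 CPM (3.02-fold lower, log2 -1.60, SE 0.289, adjusted p = 9.49e-05). The groups did not overlap for any of these.

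The amino acid transporters and the glutathione-degrading enzyme of the response fell as well. SLC7A11, the cystine transporter, was at 26.5 and 28.1 CPM against 47.9 and 49.7 CPM (log2 -0.84, SE 0.117, adjusted p = 2.00e-06), and its partner subunit SLC3A2 at 236 and 220 CPM against 328 and 315 CPM (log2 -0.49, SE 0.0721, adjusted p = 4.32e-06). CHAC1, the glutathione-degrading enzyme, was at 17.4 and 18.5 CPM against 30.0 and 30.4 CPM (log2 -0.75, SE 0.117, adjusted p = 1.12e-05). The asparagine synthetase ASNS was at 370 and 386 CPM against 462 and 452 CPM (log2 -0.27, SE 0.0673, adjusted p = 0.00257). TRIB3, MTHFD2, PSAT1, WARS1, AARS1 and VLDLR were not called. The count of lower members was 14 or 15 when any of the 4 libraries was left out, and the 1 higher member, the serine synthesis enzyme PSPH (log2 0.26, adjusted p = 0.0175), lost its call with VPR replicate 2 left out (adjusted p = 0.151), WT replicate 1 (adjusted p = 0.102) or WT replicate 2 (adjusted p = 0.0879). Of 260 tested solute carrier genes 30 were higher and 38 lower (26.2% called, near the 25.3% of all tested genes, with a median log2 fold change of 0.03). These counts were 26 and 21 without VPR replicate 2, 17 and 25 when WT replicate 1 was left out, and 15 and 27 when WT replicate 2 was.

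The element TGATGNAA, to which ATF4 binds with C/EBP partners, was searched on both strands of the RefSeq promoters. It was found in 6 of the 29 promoters that RefSeq lists for 18 of the 22 genes (20.7%) and in 3.62% of all 35114 promoters. The 6 genes are ATF3, CHAC1, ASNS, SLC3A2, CEBPG and AARS1, of which the first 5 were lower in VPR. Of the whole list of 22 genes 15 were lower. The promoters of 3 of the genes that fell are given with the match in capitals. For a gene with several starts, the first listed start that holds a match is shown, here and below.
ATF3 (chr1:212565157-212565456, plus strand): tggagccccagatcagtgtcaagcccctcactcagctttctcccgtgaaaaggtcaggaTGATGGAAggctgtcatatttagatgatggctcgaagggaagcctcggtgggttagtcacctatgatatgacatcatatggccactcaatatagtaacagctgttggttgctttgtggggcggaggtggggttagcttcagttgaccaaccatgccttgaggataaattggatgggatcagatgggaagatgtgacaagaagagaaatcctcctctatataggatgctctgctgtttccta
CHAC1 (chr15:40953221-40953520, plus strand, with the match on the opposite strand): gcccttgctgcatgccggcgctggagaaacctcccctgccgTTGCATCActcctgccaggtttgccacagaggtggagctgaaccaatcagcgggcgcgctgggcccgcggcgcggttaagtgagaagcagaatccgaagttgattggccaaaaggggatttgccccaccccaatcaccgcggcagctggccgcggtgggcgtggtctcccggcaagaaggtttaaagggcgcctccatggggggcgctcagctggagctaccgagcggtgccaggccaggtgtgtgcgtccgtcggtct
ASNS (chr7:97872359-97872658, minus strand): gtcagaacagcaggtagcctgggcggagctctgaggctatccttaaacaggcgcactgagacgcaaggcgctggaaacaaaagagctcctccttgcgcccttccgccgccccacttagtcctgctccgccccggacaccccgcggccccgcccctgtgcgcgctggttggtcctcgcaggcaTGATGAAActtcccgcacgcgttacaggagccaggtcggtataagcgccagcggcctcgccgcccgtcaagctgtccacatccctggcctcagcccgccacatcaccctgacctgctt

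Of the unfolded protein response, which raises chaperones of the endoplasmic reticulum, part was higher in VPR. Of its 16 listed genes, all tested, 9 were higher and 0 lower (56.2% called against 25.3% of all tested genes). Their median log2 fold change was 0.23. SDF2L1, a chaperone cofactor, was at 99.8 and 105 CPM in VPR against 57.7 and 61.4 CPM in WT (log2 0.78, SE 0.082, adjusted p = 1.08e-08). CALR, the lectin chaperone calreticulin, was at 758 and 770 CPM against 516 and 491 CPM (log2 0.60, SE 0.0693, adjusted p = 6.71e-08). HSPA5, the lumenal chaperone BiP, was at 566 and 584 CPM against 440 and 427 CPM (log2 0.41, SE 0.068, adjusted p = 3.15e-05), and MANF, a secreted stress factor, was at 105 and 107 CPM against 66.0 and 74.6 CPM (log2 0.59, SE 0.0779, adjusted p = 7.08e-07). All of these kept their calls when any of the 4 libraries was left out. HERPUD1, SEL1L, EDEM1, HYOU1, HSP90B1, DNAJB11 and the transcription factor XBP1 were not called. The other higher members were PDIA4, PDIA6, CRELD2, DNAJB9 and DNAJC3.

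Some cytosolic heat shock genes were higher. Of 14 genes 12 were tested, 6 were higher and 0 lower (50% called against 25.3% of all tested genes, median log2 0.33). DNAJB1, an HSP40 co-chaperone, was at 135 and 128 CPM against 79.3 and 83.2 CPM (log2 0.70, SE 0.074, adjusted p = 1.36e-08), and HSP90AA1, the inducible HSP90, at 1487 and 1790 CPM against 1137 and 1135 CPM (log2 0.53, SE 0.0761, adjusted p = 3.55e-06). HSPA1B, the inducible HSP70, was at 144 and 123 CPM against 89.7 and 88.8 CPM (log2 0.58, SE 0.076, adjusted p = 7.30e-07), but HSPA1A, its near-identical copy, was at or below 0.616 CPM in these libraries, so the split of reads between the copies is uncertain. The constitutive HSPA8, HSP90AB1 and HSPD1 were not called.

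The endoplasmic reticulum stress element, CCAAT and CCACG with any 9 bases between them, was found on either strand of 6 of the 19 promoters of the 16 unfolded protein response genes (31.6%) and of 0.0769% of all promoters. The 6 genes are HSPA5, CALR, PDIA6 and CRELD2, which were higher in VPR, and HSP90B1 and XBP1, which were not called. Of the whole list of 16 genes 9 were higher. The heat shock element, GAA, TTC and GAA with any 2 bases between neighbours, was found on either strand in 6 of the 19 promoters of 13 heat shock genes (31.6%) and in 0.49% of all promoters, and its genes were HSP90AA1 and DNAJA1, both higher, HSPA8, HSP90AB1 and HSPD1, not called, and HSPA6, not tested. Of all 12 tested heat shock genes 6 were higher. Matches of different motifs overlapped in 0 of the 35114 promoters. The promoters of 3 of the genes that rose are given with the match in capitals.
HSPA5 (chr9:125241294-125241593, minus strand): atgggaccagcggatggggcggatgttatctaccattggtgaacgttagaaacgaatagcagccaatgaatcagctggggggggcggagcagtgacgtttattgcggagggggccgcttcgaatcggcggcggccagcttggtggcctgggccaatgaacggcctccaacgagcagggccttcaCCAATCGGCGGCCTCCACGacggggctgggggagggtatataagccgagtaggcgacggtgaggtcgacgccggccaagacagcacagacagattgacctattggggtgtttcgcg
CALR (chr19:12938359-12938658, plus strand, with the match on the opposite strand): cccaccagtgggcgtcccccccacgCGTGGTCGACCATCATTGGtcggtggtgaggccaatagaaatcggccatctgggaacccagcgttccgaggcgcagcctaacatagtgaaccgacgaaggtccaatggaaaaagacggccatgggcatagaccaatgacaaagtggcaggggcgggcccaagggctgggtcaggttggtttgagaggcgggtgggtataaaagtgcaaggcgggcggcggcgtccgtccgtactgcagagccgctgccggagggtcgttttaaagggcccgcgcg
HSP90AA1 (chr14:102086995-102087294, minus strand, with the match on the opposite strand): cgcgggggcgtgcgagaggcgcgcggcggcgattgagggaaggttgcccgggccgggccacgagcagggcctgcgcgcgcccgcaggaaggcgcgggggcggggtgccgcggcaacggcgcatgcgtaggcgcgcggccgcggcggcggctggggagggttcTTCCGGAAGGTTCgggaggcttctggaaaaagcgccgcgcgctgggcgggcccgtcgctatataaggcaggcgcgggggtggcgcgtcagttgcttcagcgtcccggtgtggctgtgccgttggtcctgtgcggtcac

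Some genes of cholesterol synthesis were lower in VPR. Of 22 genes of cholesterol and fatty acid synthesis 20 were tested, 9 were lower and 1 higher (median log2 -0.37). Thus 50% were called, against 25.3% of all tested genes. SQLE, squalene epoxidase, was at 193 and 198 CPM in VPR against 355 and 356 CPM in WT (log2 -0.86, SE 0.0686, adjusted p = 1.72e-11). SREBF2, the transcription factor of the pathway, was at 227 and 204 CPM against 331 and 304 CPM (log2 -0.56, SE 0.0707, adjusted p = 3.68e-07), and its regulator INSIG1 at 89.2 and 88.7 CPM against 127 and 130 CPM (log2 -0.53, SE 0.0716, adjusted p = 1.22e-06). HMGCS1, LSS, SCD, DHCR7, MVD and MVK were the other lower members, at log2 -0.38 to -0.56, and MVK lost its call with VPR replicate 2 left out (adjusted p = 0.353), WT replicate 1 (adjusted p = 0.125) or WT replicate 2 (adjusted p = 0.0545). The groups did not overlap for these genes. IDI1, FDFT1 and FASN were not called. SC5D (log2 0.23) was the higher member, with its call lost under 8 of 12 alternatives. The sterol element TCACNCCAC was found in 1 of 22 promoters of 15 of these genes (4.55%), that of SREBF2, and in 1.13% of all promoters.

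Genes of the transcription machinery to which activation domains bind were examined as a group. Of 12 acetyltransferases and bromodomain readers, all tested, 8 were lower and 1 higher (75% called against 25.3% of all tested genes, median log2 -0.27). KAT7, the acetyltransferase HBO1, was at 60.8 and 60.1 CPM in VPR against 95.5 and 90.3 CPM in WT (log2 -0.62, SE 0.0846, adjusted p = 1.48e-06), and KAT2A, the acetyltransferase GCN5, at 51.9 and 51.7 CPM against 71.4 and 73.0 CPM (log2 -0.48, SE 0.0816, adjusted p = 4.11e-05). EP300 was not called, at 111 and 86.3 CPM against 110 and 103 CPM (adjusted p = 0.397), while it was at 1116 and 1132 CPM in the libraries labelled p300. The lower members numbered 4 without VPR replicate 2, and 5 or 3 without WT replicate 1 or WT replicate 2. Of 30 Mediator subunits 6 were higher and 6 lower (40% called against 25.3% of all tested genes, median log2 0.02). CCNC, the cyclin of the Mediator kinase module, was at 73.7 and 81.2 CPM against 49.0 and 51.2 CPM (log2 0.63, SE 0.0814, adjusted p = 5.94e-07), and MED12 of the same module at 80.2 and 66.4 CPM against 117 and 113 CPM (log2 -0.65, SE 0.0905, adjusted p = 2.18e-06). The Mediator counts fell to 2 and 2 without VPR replicate 2, to 4 and 3 without WT replicate 1, and to 2 and 3 without WT replicate 2.

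Among the called zinc finger genes more were lower than higher. Of 451 tested genes with a ZNF symbol, most of which encode DNA-binding repressors, 82 were lower and 10 higher (20.4% called, against 25.3% of all tested genes, of which 11.5% were lower and 13.8% higher), with a median log2 fold change of -0.15. The lower members numbered 51 without WT replicate 2 and 55 to 66 without each of the other 3 libraries. ZNF503 was at 151 and 134 CPM against 222 and 229 CPM (log2 -0.66, SE 0.0717, adjusted p = 1.78e-08). Of 13 tested replication-dependent histone genes 5 were higher and 1 lower (46.2% called against 25.3% of all tested genes, median log2 0.59). These counts are of RNA selected for poly-A, so histone transcripts without a poly-A tail were not measured. The near-identical copies of these genes also make the split of reads uncertain. The linker histone gene H1-2 was at 29.4 and 31.1 CPM against 11.5 and 14.2 CPM (log2 1.23, SE 0.115, adjusted p = 7.59e-10), and H2BC12 at 126 and 129 CPM against 86.1 and 83.6 CPM (log2 0.59, SE 0.0727, adjusted p = 2.49e-07). Without WT replicate 2 the histone calls were 2 and 0, and without WT replicate 1 they were 3 and 1.

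The NF-kB pathway, whose p65 subunit lends VPR a domain, showed no called target. Of 10 tested NF-kB targets 0 were higher and 0 lower (edgeR's quasi-likelihood test), with a median log2 fold change of -0.19. Among all tested genes 25.3% were called, 13.8% higher and 11.5% lower. In the REL family, given below, 40% were called. Both lists are short, and their shares were not tested against that of all genes. Its inhibitor NFKBIA was at 19.7 and 15.4 CPM in VPR against 17.3 and 17.5 CPM in WT (adjusted p = 0.956), and TNFAIP3, the feedback inhibitor A20, at 3.36 and 2.60 CPM against 3.43 and 4.20 CPM (adjusted p = 0.318). At an unadjusted p under 0.05, 1 target, TRAF1, was lower, and DESeq2 called 0. Without VPR replicate 1, NFKB1 was called lower (adjusted p = 0.022). Of the 5 REL family genes, which encode the subunits, 2 were lower, REL (log2 -0.56, adjusted p = 0.0324) and RELA, and 0 were called without VPR replicate 2 or WT replicate 2. RELA was at 102 and 92.6 CPM against 116 and 119 CPM (log2 -0.27, SE 0.0781, adjusted p = 0.0107), and this call did not hold with VPR replicate 2 left out (adjusted p = 0.126) or WT replicate 2 (adjusted p = 0.0903). The RELA level thus gives no sign of the p65 segment of the fusion, and whether reads of that segment were counted as RELA was not tested.

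Immediate early genes were split. Of 19 tested, 5 were lower and 4 higher (47.4% called against 25.3% of all tested genes), with a median log2 fold change of 0.00. JUND and JUN, subunits of AP-1, were at 129 and 115 CPM against 270 and 253 CPM (log2 -1.09, SE 0.0768, adjusted p = 1.01e-12) and at 352 and 313 CPM against 642 and 636 CPM (log2 -0.94, SE 0.0702, adjusted p = 4.23e-12). MYC was at 256 and 235 CPM against 424 and 411 CPM (log2 -0.76, SE 0.0675, adjusted p = 2.50e-10). In contrast to JUN and JUND, JUNB was at 16.7 and 12.9 CPM against 7.26 and 8.41 CPM (log2 0.92, SE 0.155, adjusted p = 3.46e-05). EGR1, a serum-responsive factor, was not called (6.14 and 3.76 CPM against 3.43 and 3.43 CPM, adjusted p = 0.0618). The higher members numbered 1 without WT replicate 2 and 2 without VPR replicate 1 or WT replicate 1.

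In the Wnt pathway 5 of 33 tested genes were lower and 1 higher (18.2% called, below the 25.3% of all tested genes). CTNNB1, beta-catenin, was at 591 and 608 CPM against 444 and 418 CPM (log2 0.48, SE 0.0697, adjusted p = 4.60e-06), and AXIN1, a scaffold of its destruction complex, at 60.1 and 58.4 CPM against 80.5 and 81.3 CPM (log2 -0.45, SE 0.0835, adjusted p = 1.27e-04). AXIN2, a transcriptional target of the pathway, was not called (adjusted p = 0.341). The lower members numbered 3 without VPR replicate 2 and 2 without WT replicate 2. Of 10 tested interferon-stimulated genes 2 were higher and 0 lower (20% called, below the 25.3% of all tested genes). The higher members were IFI6 at 8.74 and 10.6 CPM against 5.11 and 2.78 CPM (log2 1.30, SE 0.192, adjusted p = 5.59e-06) and OAS3 at 0.95 and 0.616 CPM against 0.134 and 0.259 CPM (log2 1.95, adjusted p = 0.0351). The OAS3 call was lost with VPR replicate 1 left out (adjusted p = 0.194), WT replicate 1 (adjusted p = 0.203) or WT replicate 2 (adjusted p = 0.0796). Of 11 HOX cluster A genes, developmental regulators, 3 were higher and 1 lower (36.4% called). The 3 higher members lost their calls when any 1 of the 4 libraries was left out. Of the tested hypoxia and glycolysis genes 40% were called, against 25.3% of all tested genes. Of 15 tested hypoxia and glycolysis genes 3 were higher and 3 lower, with VEGFA, the angiogenic factor, at log2 -0.47 (adjusted p = 5.70e-05), and without VPR replicate 2 the counts were 0 and 2.

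Of 15 G2 and M phase genes 13 were higher and 0 lower (86.7% called against 25.3% of all tested genes). Their median log2 fold change was 0.27. CDK1, the mitotic kinase, was at 133 and 165 CPM in VPR against 105 and 107 CPM in WT (log2 0.48, SE 0.0841, adjusted p = 5.43e-05), and its cyclin CCNB1 at 254 and 290 CPM against 208 and 194 CPM (log2 0.44, SE 0.0781, adjusted p = 7.75e-05). The count of higher members was 8 without VPR replicate 2, and 6 or 8 without WT replicate 1 or WT replicate 2, and also 8 in a fit of the 2 groups alone. Of 15 S phase genes 7 were higher and 0 lower (46.7% called, median log2 0.18). GINS2, a subunit of the replicative helicase, was at 163 and 190 CPM against 128 and 123 CPM (log2 0.49, SE 0.0821, adjusted p = 3.09e-05). The S phase count was 4 without VPR replicate 2 and 2 without WT replicate 2. These rises accompanied the higher CDKN1A described above, and in bulk RNA a change in the share of cells in a phase and a change in RNA per cell cannot be told apart.

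Transcripts of the mitochondrial genome rose, but mainly in VPR replicate 1. Of 13 genes 11 were higher and 0 lower (84.6% called against 25.3% of all tested genes, median log2 0.46). The summed level of the 13 genes was 35225 and 22343 CPM in VPR against 21839 and 19191 CPM in WT. MT-CO3, a cytochrome oxidase subunit, was at 4427 and 2569 CPM against 2132 and 1882 CPM (log2 0.80, SE 0.125, adjusted p = 1.14e-05), and MT-ATP6, an ATP synthase subunit, at 2307 and 1496 CPM against 1128 and 1003 CPM (log2 0.84, SE 0.123, adjusted p = 4.95e-06). MT-CO3, MT-CO2, MT-CYB and MT-ATP6 kept their calls when any of the 4 libraries was left out. MT-ND4 was at 4056 and 2723 CPM against 2590 and 2267 CPM (log2 0.48, SE 0.118, adjusted p = 0.00247) and lost its call with VPR replicate 1 left out (adjusted p = 0.238) or WT replicate 2 (adjusted p = 0.0751). The higher members numbered 4 without VPR replicate 1, 4 without WT replicate 2, 12 without VPR replicate 2 and 4 in DESeq2. Reads of mitochondrial genes can also align to nuclear copies, so their counts are uncertain.

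The summed level of the ribosomal protein genes was 123834 CPM in VPR replicate 1 and 141469 CPM in VPR replicate 2, against 125402 and 121732 CPM in WT. Of the tested ribosomal protein genes 31.3% were called, against 25.3% of all tested genes. Of 83 tested, 24 were higher and 2 lower (median log2 0.11), and the counts were 38 and 0 without VPR replicate 1, 7 and 1 without VPR replicate 2 and 13 and 4 in DESeq2. They were 14 and 1 without WT replicate 1 and 11 and 0 when WT replicate 2 was left out. RPS6 was at 3543 and 4714 CPM against 3278 and 3112 CPM (log2 0.37, SE 0.0979, adjusted p = 0.00494), and RPS18 at 3105 and 4151 CPM against 2832 and 2740 CPM (log2 0.38, SE 0.101, adjusted p = 0.00497). Without VPR replicate 2 neither was called (adjusted p = 0.263 and 0.257), nor with WT replicate 2 left out (adjusted p = 0.0708 and 0.0602). RPS27L, a p53-responsive paralog of RPS27, was at 78.1 and 93.5 CPM against 50.6 and 52.3 CPM (log2 0.74, SE 0.0917, adjusted p = 2.77e-07). Of the tested nuclear genes of the respiratory chain 33.8% were called, against 25.3% of all tested genes. Of these 77 genes 25 were higher and 1 lower (median log2 0.22), with the ATPase inhibitor ATP5IF1 at 371 and 431 CPM against 262 and 263 CPM (log2 0.61, SE 0.0858, adjusted p = 2.27e-06). Those counts were 43 and 2 without VPR replicate 1, 13 and 0 without VPR replicate 2 and 16 and 0 without WT replicate 2.

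The largest falls in CPM were those of EEF2, ACTG1, HNRNPA1, PABPC1, RPL3 and EIF4B. EEF2, the elongation factor that moves the ribosome, was at 7070 and 5981 CPM in VPR against 9513 and 9085 CPM in WT (log2 -0.51, SE 0.0782, adjusted p = 9.21e-06). EIF4B, an initiation factor, was at 795 and 815 CPM against 1265 and 1213 CPM (log2 -0.62, SE 0.067, adjusted p = 1.67e-08), and PABPC1, the poly-A binding protein, at 1499 and 1401 CPM against 2183 and 2141 CPM (log2 -0.58, SE 0.0685, adjusted p = 1.16e-07). The groups lay clearly apart for all 3. ACTG1, cytoplasmic gamma-actin, fell by 0.43 on the log2 scale (SE 0.0726, adjusted p = 4.23e-05), HNRNPA1, an RNA-binding protein, by 0.30 (SE 0.0703, adjusted p = 0.00157) and RPL3 by 0.24 (SE 0.0727, adjusted p = 0.0153). RPL3 lost its call with VPR replicate 1 left out (adjusted p = 0.0804), WT replicate 1 (adjusted p = 0.0806) or WT replicate 2 (adjusted p = 0.0708). In each library of the other 4 groups, EEF2, EIF4B and PABPC1 were also below both WT libraries.

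**Figure D5:**
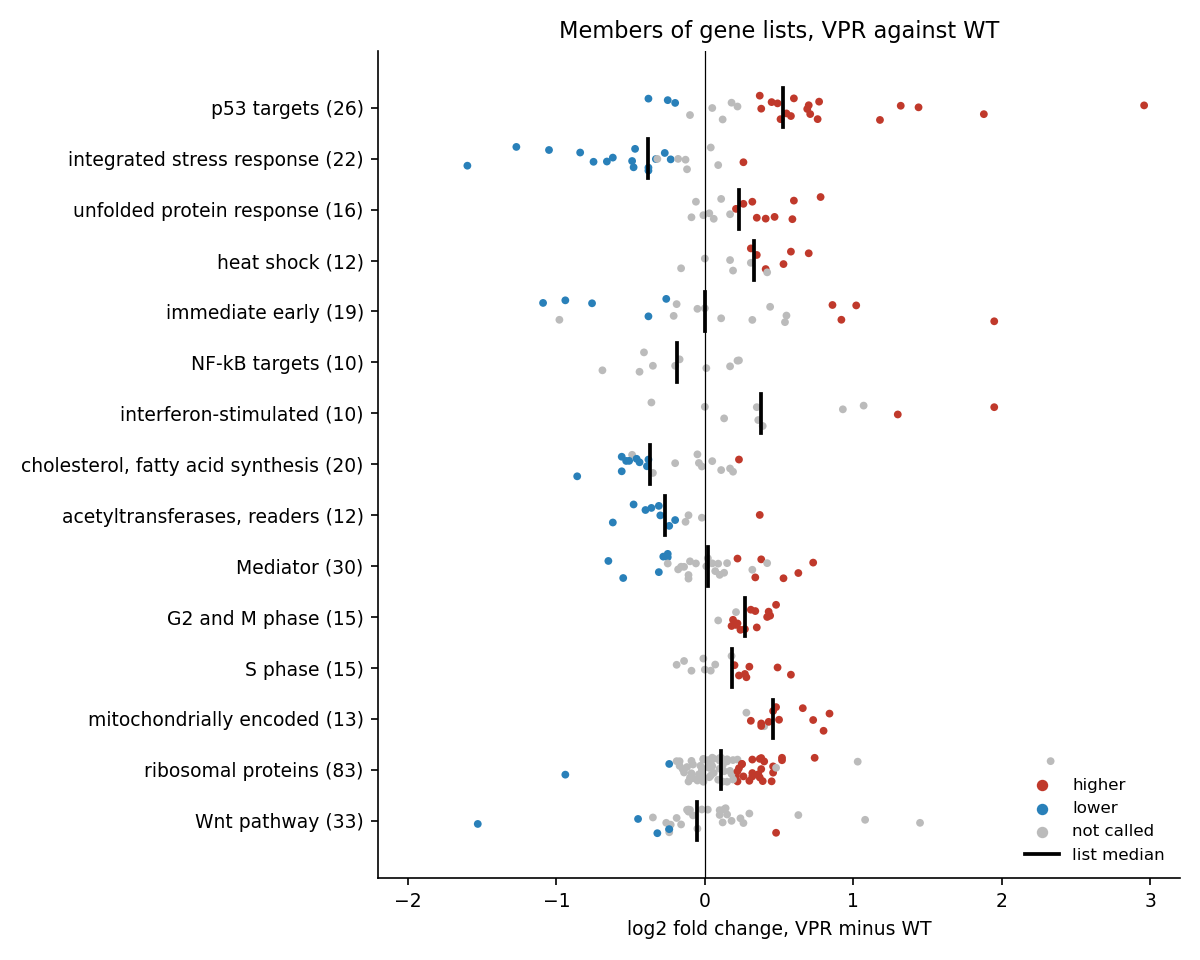
Each point is a tested member of a gene list, with its log2 fold change of VPR against WT on the x axis and the number of tested members in brackets. Red, blue and grey points are higher, lower and not called, and the black bar is the list's median, 0.53 for the p53 targets and -0.38 for the integrated stress response. The median over all tested genes is 0.02.

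Markers of HEK293 cells were present in both groups. Of 8 markers tested, CDH2, NEFM, KRT18 and PAX2 were not called. VIM, the mesenchymal filament vimentin, was at 99.6 and 93.5 CPM in VPR against 174 and 176 CPM in WT (log2 -0.86, SE 0.073, adjusted p = 9.92e-11), and KRT8, an epithelial keratin, at 54.2 and 53.6 CPM against 26.3 and 28.5 CPM (log2 0.98, SE 0.0931, adjusted p = 1.27e-09). EYA1, a kidney progenitor gene, was at 5.64 and 5.06 CPM against 8.67 and 12.1 CPM (log2 -0.96, SE 0.2, adjusted p = 5.28e-04). Most keratinocyte genes had few or no counts. KRT5, KRT14, IVL, SPRR1A, SPRR1B and SPRR2A had 0 counts in VPR and WT, and TP63 was at or below 0.127 CPM. PPL, periplakin, the partner of EVPL, was at 3.29 and 1.64 CPM against 1.21 and 0.906 CPM (log2 1.23, SE 0.376, adjusted p = 0.0145), and this call did not hold with VPR replicate 1 left out (adjusted p = 0.366) or WT replicate 2 (adjusted p = 0.13). DSP, desmoplakin, was at 188 and 166 CPM against 239 and 236 CPM (log2 -0.42, SE 0.0725, adjusted p = 4.72e-05). Of the 16 keratinocyte genes 6 were tested, 2 were higher, EVPL and PPL, and 1 lower (50% called against 25.3% of all tested genes).

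VPR differed from the catalytically impaired p300 fusion at fewer genes than from VPRP. Against p300 D1399Y 3527 genes (21.1%) were called, 1819 higher and 1708 lower in VPR, and 2197 without VPR replicate 2 or 1977 without p300 D1399Y replicate 1. Against VPRP with the HBB guide 8307 genes (49.8%) were called. These comparisons share the VPR libraries with the comparison to WT. RPL22L1, a paralog of RPL22, was lower in VPR than in both, by 1.69 on the log2 scale against p300 D1399Y (SE 0.0911, adjusted p = 4.03e-16) and by 1.45 against VPRP (SE 0.0913, adjusted p = 3.58e-15). Among all tested genes 25.1% were higher and 24.7% lower in VPR than in VPRP. Of the 22 stress response genes 16 were higher and 3 lower. PSAT1, a serine synthesis enzyme, was higher by 1.06 on the log2 scale (SE 0.0697, adjusted p = 1.09e-14) and ASNS by 0.85 (SE 0.0684, adjusted p = 2.16e-12), whereas DDIT3 was lower by 2.19 (SE 0.269, adjusted p = 2.73e-08). Of the 16 unfolded protein response genes 11 were lower in VPR than in VPRP and 1 higher, with MANF lower by 1.26 (SE 0.0744, adjusted p = 7.42e-16). Of the 7 tested genes of the DUX4 program, which marks cleavage-stage embryos, 0 were called against WT in edgeR's quasi-likelihood test. The count was also 0 at an unadjusted p under 0.05 and 0 in DESeq2. All 7 were lower in VPR than in VPRP. The summed level over the 12 listed genes was 0.253 and 0.137 CPM in VPR and 0 in WT. At these levels the genes were tested only because other groups held them higher. A call against WT was thus hardly possible, and the direction against VPRP was in part set by the count filter.

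Between the 2 VPR libraries, the lowest ratios of replicate 2 to replicate 1 among genes at 10 CPM or more were those of MT-CO3 (0.58), the potassium channel KCNJ4 (0.588), the pseudogene PERPP2 (0.59), the nuclear noncoding RNA MALAT1 (0.596) and the lysosome-related BLOC1S3 (0.606). The highest were those of the snRNP import adaptor SNUPN (1.73), ENSG00000260196 (1.72), the noncoding SNHG30 (1.67), the mitochondrial polymerase subunit POLG2 (1.63) and the splicing regulator NSRP1 (1.63). Each of these is a single pair of libraries without a test. KCNJ4 was at 10.0 and 5.88 CPM in VPR against 12.3 and 12.0 CPM in WT, and its call (log2 -0.60, SE 0.192, adjusted p = 0.0189) was lost with VPR replicate 2 left out (adjusted p = 0.403), WT replicate 1 (adjusted p = 0.0859) or WT replicate 2 (adjusted p = 0.0685). NSRP1 was at 11.2 and 18.3 CPM against 20.0 and 22.3 CPM (log2 -0.53, SE 0.153, adjusted p = 0.00977), and this call did not hold with VPR replicate 1 left out (adjusted p = 0.353) or WT replicate 2 (adjusted p = 0.106). Of the genes called in VPR against WT and described here or listed with them, 254 in number, 140 kept the call in every alternative, 76 lost it without VPR replicate 2, 40 without VPR replicate 1 and 109 without a WT library, and 0 changed sign.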

How the data were processed

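The authors deposited a table of read counts per gene, made with STAR 2.5, HTSeq 0.6.1 and DESeq2 1.24.0 among the tools that the submitters' processing notes name, on hg19, and its values are whole counts as deposited. No source used here gives the annotation release or the strand setting. Genes were kept by edgeR's filterByExpr, scaled with TMM factors and fitted over all 12 RNA libraries in 6 groups with the quasi-likelihood test of edgeR 4.0.16 (R 4.3.3), with Benjamini-Hochberg adjustment over 16694 genes. Fitting all groups gives VPR and WT 1 shared estimate of spread. The VPR libraries varied more than those of any other group, so this estimate can understate their spread. Of 48162 gene IDs, 33626 had a symbol. The script was tested on simulated data. Named genes were HBB, RELA and EP300, the 12 largest rises and falls of at least 2-fold, and the 6 largest changes in CPM each way. The 5 extreme ratios between VPR libraries each way and up to 4 members of each list by p were also named. Further members were added to show what a list held. The largest rises and falls were taken among called genes with a symbol, no overlap of the groups and a mean log2 CPM of at least 1. The members and lists were chosen with earlier results of these data known. Results for some genes of the rule and lists are not reported here. Alternatives were RLE and upper-quartile factors, other filters, DESeq2 1.42.0, limma 3.58.1 voom, the 2 groups alone, a replicate block and leaving out each library. The 10 ChIP samples were not analysed here.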

Additional observations from a re-analysis of the deposited data

How the results depend on the processing

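The 4220 genes called between VPR and WT numbered between 2548 (without WT replicate 2) and 4199 (without VPR replicate 1) when 1 library was left out, with 1358 to 2276 higher and 1190 to 1923 lower. Between VPR and p300 D1399Y the count ran from 1977 to 3770. The 26 genes near 0 in WT were 198 with a minimum of 10 counts in VPR and 4 with a minimum of 40, and the 10 near 0 in VPR were 107 and 1. Other settings kept the VPR against WT count within 1.5-fold, from 3402 with limma voom to 4227 with RLE factors. The higher calls were 2307 with TMM, 2074 with RLE and 2554 with upper-quartile factors. The differences between replicates in VPR and in WT had a correlation of 0.00649 across genes. With a single difference in each group, this cannot exclude a pairing by replicate number. The replicate block called 4006 genes. No described call changed sign under any of the 12 alternatives. With 2 libraries a group, the spread rests on all 6 groups, and 1 remaining library was assumed to vary like the other groups. Genes with few counts, such as CTSG and LRCOL1, give only lower bounds.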
